A study of Mus musculus with 10 samples.

Results

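The Wnt pathway was followed in sorted cells of the embryonic mouse brain through 51 genes, which encode its ligands, receptors, inhibitors, cytoplasmic components and nuclear effectors. The members were the genes whose symbol is *Wnt* or *Fzd* followed by a number, and a named list of coreceptors, alternative receptors, secreted inhibitors, R-spondin components, destruction complex genes and TCF/LEF factors. The rule gave 67 genes of the mouse annotation, of which 51 were among the 14300 genes of the count table, with 7 of 19 *Wnt* genes and 10 of 10 *Fzd* genes. The other 16 (*Dkk1*, *Lgr5*, *Notum*, *Ror1*, *Wnt1*, *Wnt2*, *Wnt3a*, *Wnt4*, *Wnt6*, *Wnt8a*, *Wnt9a*, *Wnt9b*, *Wnt10a*, *Wnt10b*, *Wnt11* and *Wnt16*) were not analysed here.

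The cells came from C57BL/6J embryos of the *Grem1creERT; Rosa26LSLTdtomato* reporter line, which carry a tamoxifen-inducible Cre transgene driven by *Grem1* regulatory sequences and a Cre-activated TdTomato gene. Cells with an active *Grem1* promoter at the time of tamoxifen, and their progeny, become red. Dams were given tamoxifen at embryonic day E13.5 and embryos were collected 24 h later at E14.5. Live TdTomato+ and TdTomato- cells were flow sorted for RNA sequencing. Each of 5 mice, numbered 2 to 6, gave 1 library of either population, 10 in all. Both populations carried the same alleles and had received tamoxifen. The TdTomato- population is every other live cell of the dissected tissue and is a mixture, so a level in it is an average over many cell types. In bulk RNA of this kind, fewer cells of a type and less RNA per cell cannot be told apart.

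Wnt proteins are lipid-modified secreted ligands. They bind frizzled receptors together with the coreceptors Lrp5 and Lrp6, dishevelled proteins then inhibit the complex of Axin, Apc and Gsk3b that marks β-catenin for degradation, and β-catenin moves to the nucleus and acts with TCF/LEF factors on target genes. Other branches, through Ror2, Ryk, Ptk7 and the planar cell polarity proteins, act without β-catenin. In the developing forebrain Wnt signalling from the cortical hem and within the ventricular zone is known for roles in patterning, in the growth of progenitors and in hippocampal formation, and later for roles in axon growth and synapse formation.

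Total counts per library were 23429034 to 27286180. Levels are given as CPM, the reads of a gene per 1000000 reads of the library after scaling by the trimmed mean of M values (TMM). The scaling factors separated the populations, at 1.06 to 1.07 for TdTomato- and 0.93 to 0.95 for TdTomato+. *Grem1*, the gene that drives the reporter, was at 61.6, 68.4, 60.7, 63.8 and 61.8 CPM in the TdTomato+ libraries of mice 2 to 6 and at 5.00, 6.32, 5.93, 6.30 and 7.00 CPM in the TdTomato- libraries. The labels of the 10 libraries thus matched the sort. The summed level of 6 cortical neuron markers (*Tbr1*, *Neurod6*, *Neurod2*, *Bcl11b*, *Fezf2* and *Slc17a6*) was 5831 to 6823 CPM in TdTomato+ and 1665 to 2322 CPM in TdTomato- libraries. *Slc17a6* by itself was lower in TdTomato+ cells. The sums for 6 radial glia markers (98.1 to 138 against 1184 to 1468 CPM), 4 intermediate progenitor markers (63.2 to 117 against 810 to 1036 CPM) and 6 interneuron markers (41.1 to 62.0 against 1256 to 1638 CPM) were lower in the TdTomato+ libraries, as was that of 5 Cajal-Retzius cell markers (127 to 158 against 213 to 390 CPM). Microglial (5 of 6 markers in the table, 0.680 to 1.54 against 11.4 to 53.9 CPM), pericyte (5 of 6, 5.70 to 7.96 against 95.0 to 113 CPM) and erythroid sums (5 of 6, 1.18 to 25.7 against 74.2 to 258 CPM) were lower as well. *Notch3* held most of the pericyte sum, at a mean of 87.3 CPM in TdTomato- and 4.52 CPM in TdTomato+ libraries, and *Abcc9* was not called. The sums of the endothelial (3 of 8) and meningeal (2 of 8) markers in the table stayed at or under 5.29 CPM in every library. All comparisons below are between populations that differ in this cellular makeup, and its part in them was not tested.

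In TdTomato+ cells most of the 51 members were at a lower level than in TdTomato- cells, and a few were at a higher level, among them *Wnt7b* and *Rspo3*. Of the 51 members, 18 (35.3%) were lower and 2 (3.92%) were higher past both thresholds, which were an adjusted p of at most 0.05 and a log2 fold change of 2 or more in size. Of all 14300 genes, 9.74% were lower and 3.20% were higher by that rule. With libraries scaled by their totals alone, which moved the median log2 fold change of all genes to −0.18, 19 members were lower and 0 higher. TREAT, which tests each change against the fold threshold itself, left 14 lower and 0 higher. With the adjusted p alone, 40 members (78.4%) were lower and 6 (11.8%) higher, beside 39.4% and 37.9% of all genes. *Fzd3*, *Fzd4*, *Dkk2*, *Rspo2* and *Gsk3b* were not called. The libraries of both populations did not overlap for 43 of 51 members (84.3%), beside 61.6% of all genes. The median log2 fold change of the members was −1.20, and that of all genes was −0.01. The table holds genes above 0.5 CPM in at least 5 libraries, and 6 members (*Wnt2b*, *Wnt8b*, *Fzd6*, *Wif1*, *Rspo1* and *Rnf43*) were under 0.5 CPM in every TdTomato+ library. These 6 were in the table through the TdTomato- libraries alone and had to differ, so the counts describe the genes of the table and not the whole pathway.

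**Figure D1:**
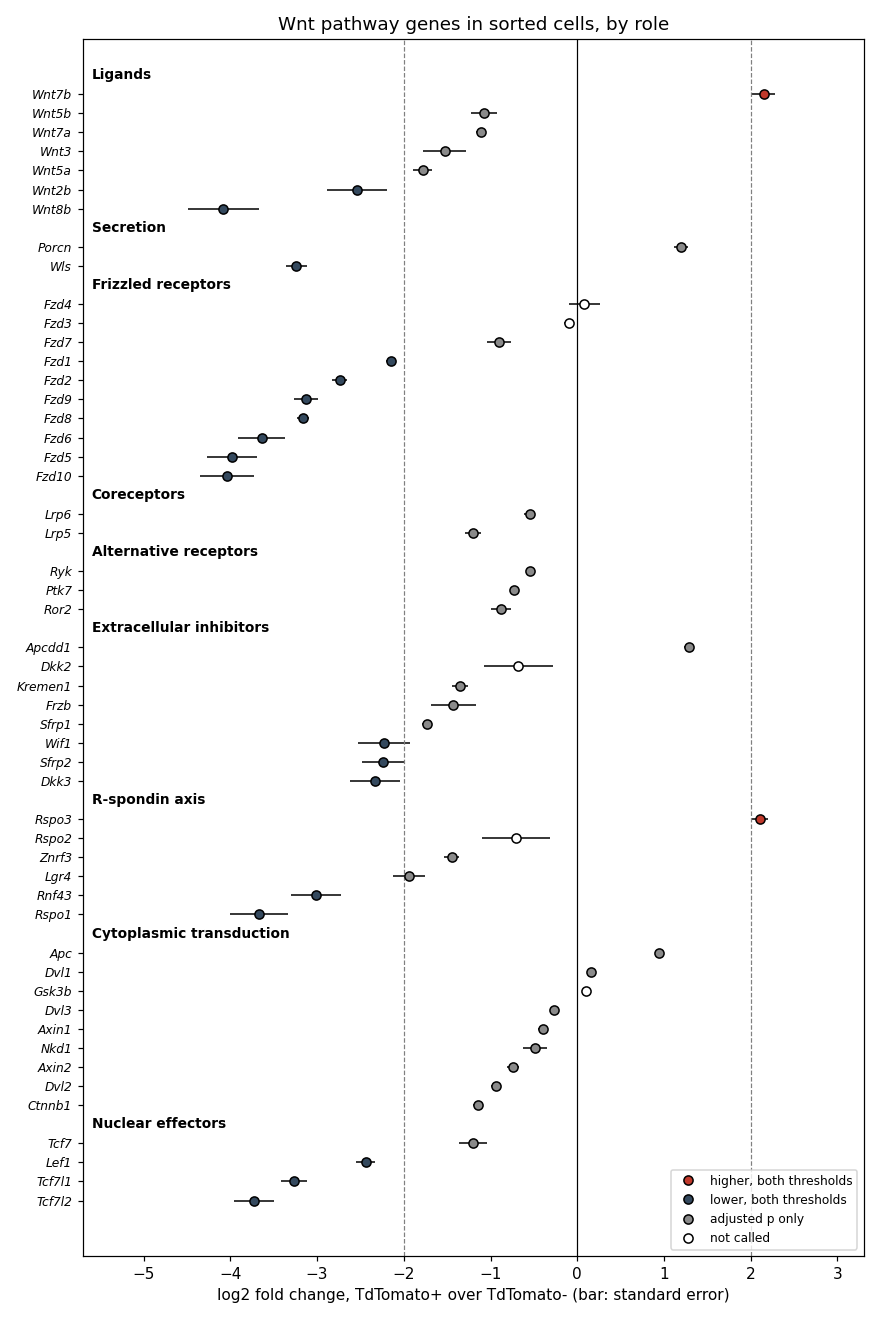
Log2 fold change of the 51 Wnt pathway genes, TdTomato+ over TdTomato-, grouped by role. Bars are standard errors from edgeR, dashed lines mark log2 fold changes of −2 and 2, and colours mark the call. Of the frizzled genes 7, and of the TCF/LEF genes 3, lie left of the lower line, and *Wnt7b* and *Rspo3* lie right of the upper line.

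The sequence before the transcription start of 5 members that were lower past both thresholds is shown because these genes span the pathway from secretion (*Wls*) and reception (*Fzd1*) to transcription (*Tcf7l2*, *Tcf7l1* and *Lef1*). The 250 bases before the start are from RefSeq on GRCm38.p6, 5′ to 3′ on the strand of the gene, in lower case. Capitals mark CTTTG or its reverse complement CAAAG, the core of the motif bound by TCF/LEF factors. The starts are those of RefSeq. For *Tcf7l1* that start lay inside the gene as annotated by GENCODE M21 (chr6:72626378-72789254, minus strand). Most of its stretch, with the marked CTTTG, was therefore within the annotated gene.
Wls (chr3:159839400-159839649, plus strand): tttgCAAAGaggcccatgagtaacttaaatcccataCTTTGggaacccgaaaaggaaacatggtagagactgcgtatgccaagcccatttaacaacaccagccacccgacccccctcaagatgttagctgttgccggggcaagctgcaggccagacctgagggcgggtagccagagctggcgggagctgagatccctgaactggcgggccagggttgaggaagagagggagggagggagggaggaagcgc
Fzd1 (chr5:4758217-4758466, minus strand): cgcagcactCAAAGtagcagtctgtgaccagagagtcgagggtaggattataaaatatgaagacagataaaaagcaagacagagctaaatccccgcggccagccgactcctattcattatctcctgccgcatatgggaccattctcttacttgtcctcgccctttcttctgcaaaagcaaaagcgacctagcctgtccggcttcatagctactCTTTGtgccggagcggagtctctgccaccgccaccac
Tcf7l2 (chr19:55741560-55741809, plus strand): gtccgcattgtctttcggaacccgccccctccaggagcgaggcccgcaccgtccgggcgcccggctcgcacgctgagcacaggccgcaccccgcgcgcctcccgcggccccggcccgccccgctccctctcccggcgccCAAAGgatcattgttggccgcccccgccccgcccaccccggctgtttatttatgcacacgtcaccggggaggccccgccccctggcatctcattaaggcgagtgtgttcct
Tcf7l1 (chr6:72789046-72789295, minus strand): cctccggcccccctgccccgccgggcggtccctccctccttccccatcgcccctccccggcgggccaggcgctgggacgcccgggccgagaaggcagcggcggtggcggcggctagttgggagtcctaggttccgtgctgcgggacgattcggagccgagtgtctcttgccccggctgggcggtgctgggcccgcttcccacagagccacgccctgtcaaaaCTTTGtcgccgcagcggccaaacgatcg
Lef1 (chr3:131110047-131110296, plus strand): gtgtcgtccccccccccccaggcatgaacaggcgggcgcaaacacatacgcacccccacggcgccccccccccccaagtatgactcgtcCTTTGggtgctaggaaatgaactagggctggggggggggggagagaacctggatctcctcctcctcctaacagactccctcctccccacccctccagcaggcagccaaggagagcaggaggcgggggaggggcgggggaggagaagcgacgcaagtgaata
*Wls* and *Fzd1* held the core at 2 places each, and *Tcf7l2*, *Tcf7l1* and *Lef1* at 1 place each. RefSeq gave a promoter for 33 of the 51 members, and for 26 of these the 20 bases after the start were in a GENCODE transcript. Of the 33, 17 (51.5%) held the core on either strand in the 250 bases before the start. Of 27025 mouse genes with a promoter, 13178 (48.8%) held it, and of the 14 matched members that were lower past both thresholds 8 held it. The share among the members was thus near that of all promoters, and a match describes the letters and not a bound site.

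Among the ligands, *Wnt7b* was the exception: it was the most abundant Wnt transcript per kilobase of exon in both populations and the only ligand of 7 at a higher level in TdTomato+ cells. *Wnt7b* (chr15:85535437-85582473, minus strand, GRCm38) encodes a ligand known for roles in vascular and dendrite development. It was at 115, 215, 201, 149 and 193 CPM in the TdTomato- libraries of mice 2 to 6 and at 773, 767, 692, 752 and 795 CPM in the TdTomato+ libraries. Every TdTomato+ library was above every TdTomato- library, with a fold of 4.43 (log2 fold change 2.15 ± 0.13 SE, adjusted p = 5.4e-07). Under TREAT the change was not past the fold threshold (adjusted p = 0.41). The log2 fold change fell just under 2 without mouse 2, whose TdTomato- library was the lowest, and was 1.97 with scaling by library totals alone. The closely related *Wnt7a* (chr6:91363981-91411363, minus strand, GRCm38) went the other way. It was at 47.0, 58.2, 55.8, 59.8 and 54.0 CPM in TdTomato- and 23.7, 29.8, 24.1, 26.0 and 23.9 CPM in TdTomato+ libraries, and again the groups did not overlap (log2 fold change −1.11 ± 0.06 SE, adjusted p = 1.7e-07). Per kilobase of exon, the scale on which genes can be set against each other, *Wnt7b* was at 35.6 CPM and *Wnt7a* at 17.3 CPM in TdTomato- cells, and at 154 and 8.03 CPM in TdTomato+ cells.

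Of the ligands in the table, *Wnt8b* and *Wnt2b*, known from the cortical hem, and *Wnt5a*, of the non-canonical branch, were lower in TdTomato+ cells. *Wnt8b* (chr19:44493472-44514273, plus strand, GRCm38), a marker of the cortical hem and medial pallium, was at 4.34, 3.73, 3.61, 3.33 and 4.70 CPM in TdTomato- libraries and at 0.408, 0.130, 0.441, 0.174 and 0 CPM in TdTomato+ libraries, from 0 to 10 reads each (log2 fold change −4.08 ± 0.41 SE, adjusted p = 1.5e-05). *Wnt2b* (chr3:104945272-104961921, minus strand, GRCm38), likewise known from the hem, was at 0.782, 1.24, 1.24, 1.43 and 1.46 CPM in TdTomato- and 0.0907, 0.173, 0.486, 0.0870 and 0.226 CPM in TdTomato+ libraries, with 2 to 11 reads per TdTomato+ library (log2 fold change −2.54 ± 0.35 SE, adjusted p = 1.3e-04). The summed level of the hem and choroid plexus markers *Lmx1a*, *Msx1* and *Otx2* (3 of 6 listed) was 11.1 to 17.1 CPM in TdTomato- and 0.362 to 2.74 CPM in TdTomato+ libraries. Its part in these differences was not tested. Both ligand genes were under 0.5 CPM in every TdTomato+ library. They were thus in the table through the TdTomato- libraries alone, and their separation was fixed by its filter. Their levels in TdTomato+ cells were near the floor of 3 reads, which is 0.104 to 0.136 CPM. *Wnt5a*, the main ligand of the non-canonical branch, was at 25.1, 15.9, 16.8, 25.0 and 22.9 CPM in TdTomato- and 6.94, 3.99, 3.71, 8.91 and 7.95 CPM in TdTomato+ libraries (log2 fold change −1.78 ± 0.11 SE, adjusted p = 6.3e-07). Its groups did not overlap, and mice 3 and 4 were the lowest within each population. *Wnt3* and *Wnt5b* were at low levels. *Wnt3* was at 3.41 ± 1.25 CPM (SD, n = 5) in TdTomato- and 1.16 ± 0.387 CPM in TdTomato+ libraries (log2 fold change −1.53 ± 0.25 SE, adjusted p = 4.2e-04). *Wnt5b* was at 4.09 ± 0.567 CPM (SD, n = 5) in TdTomato- and 1.94 ± 0.253 CPM in TdTomato+ libraries (log2 fold change −1.07 ± 0.15 SE, adjusted p = 1.2e-04).

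The sum of the 7 ligands per kilobase was 59.7 ± 9.05 CPM (SD, n = 5) in TdTomato- and 164 ± 8.21 CPM in TdTomato+ libraries, a ratio of 2.75. Of the 7 genes, 6 were lower and 1 higher by the adjusted p, beside 39.4% and 37.9% of all genes. *Wnt8b* and *Wnt2b*, among the 6, had to be lower by the filter of the table. The share of *Wnt7b* in this sum was 51.4%, 64.5%, 62.6%, 53.8% and 62.5% in the TdTomato- libraries of mice 2 to 6 and 94.3%, 93.4%, 93.8%, 93.5% and 94.3% in the TdTomato+ libraries. The mean difference was 34.9 percentage points, higher in 5 of 5 mice (exact paired sign-flip permutation test, two-sided, p = 0.0625, the smallest that 5 pairs allow). *Wnt7a* made up 29.4% ± 3.34 of the sum in TdTomato- and 4.89% ± 0.494 in TdTomato+ libraries, and no other ligand passed 5% in either mean. Without a correction for length the difference in the *Wnt7b* share was 30.0 points, and with the longest transcript in place of all exons it was 28.8 points.

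**Figure D2:**
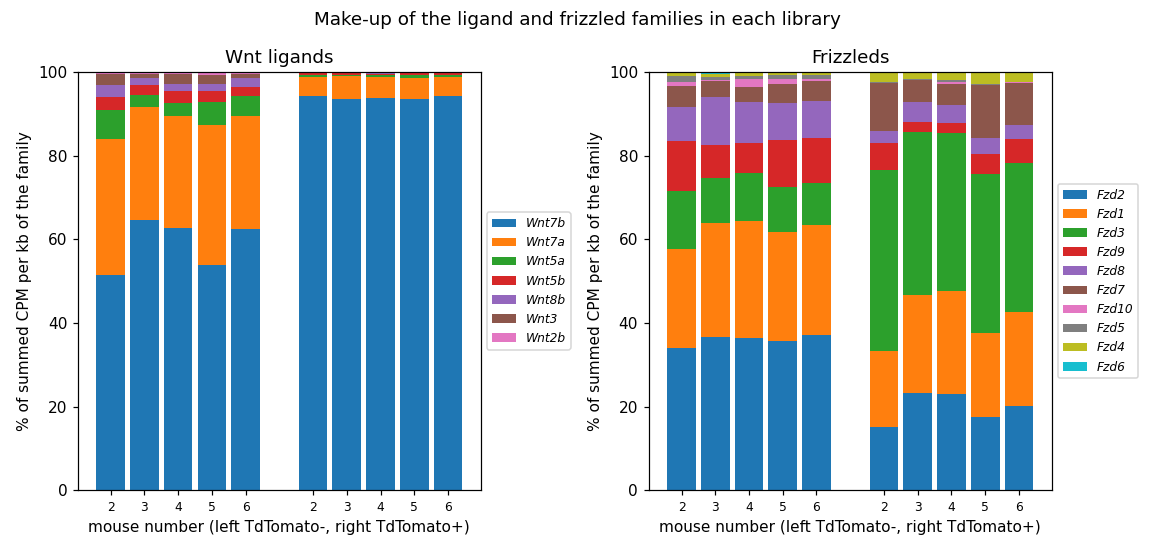
Share of each gene in the summed CPM per kilobase of exon of the 7 ligands (left) and the 10 frizzled receptors (right), with 1 bar per library and mouse numbers on the horizontal axis. *Wnt7b* fills 93.4% to 94.3% of the ligand bar in the TdTomato+ libraries, and the *Fzd3* segment is taller in the TdTomato+ than in the TdTomato- libraries of every mouse.

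The genes of Wnt secretion moved in opposite directions. *Wls* (chr3:159839672-159938664, plus strand, GRCm38), whose product carries lipid-modified Wnt proteins to the cell surface, was at 21.9, 13.8, 19.3, 20.4 and 17.4 CPM in TdTomato- and 1.86, 1.56, 1.63, 2.43 and 2.30 CPM in TdTomato+ libraries. The 9.43-fold lower level (log2 fold change −3.24 ± 0.12 SE, adjusted p = 2.3e-08) held in each mouse, with no overlap of the groups. *Porcn* (chrX:8193848-8206525, minus strand, GRCm38), the acyltransferase that adds the lipid, was at 44.3, 28.1, 26.0, 25.8 and 33.0 CPM in TdTomato- and 83.6, 58.6, 71.7, 63.3 and 79.9 CPM in TdTomato+ libraries. Its level was 2.30-fold higher in TdTomato+ cells (log2 fold change 1.20 ± 0.08 SE, adjusted p = 8.0e-07), and the lowest TdTomato+ library stood above the highest TdTomato- library.

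**Figure D3:**
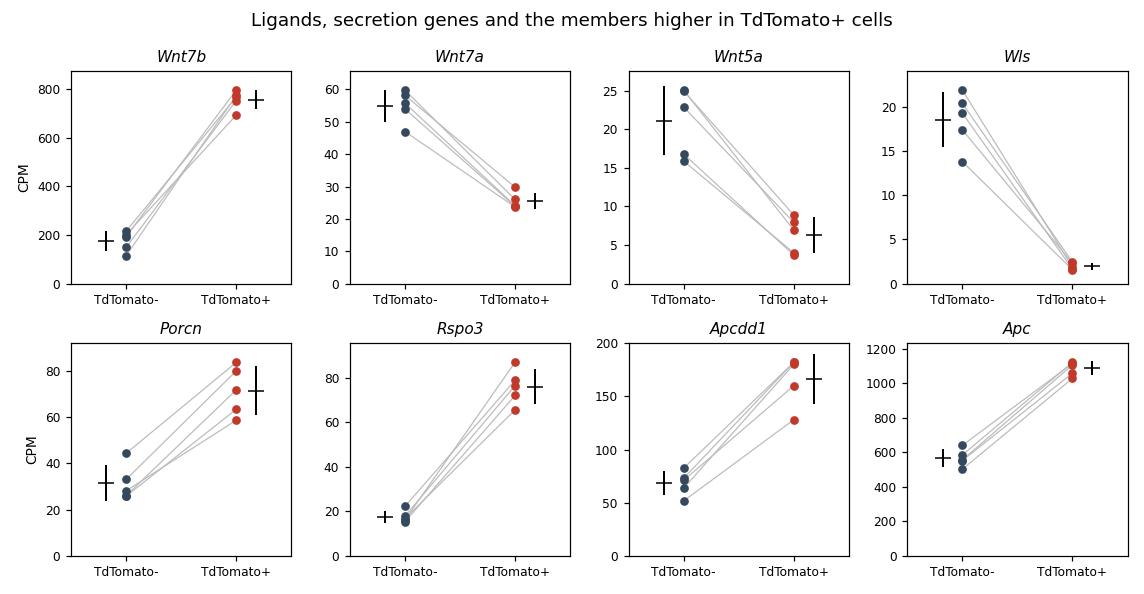
CPM (linear axes from 0) of 3 ligands, both secretion genes, *Rspo3*, *Apcdd1* and *Apc*. Points are libraries, lines join the libraries of a mouse, and crosses give the mean ± SD of 5 mice. *Wnt7b*, *Porcn*, *Rspo3*, *Apcdd1* and *Apc* rise from TdTomato- to TdTomato+ in each mouse, and *Wnt7a*, *Wnt5a* and *Wls* drop.

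Of the 10 frizzled receptor genes, 7 were lower past both thresholds, *Fzd7* was lower by the adjusted p alone, and *Fzd3* and *Fzd4* were not called. Of all genes 9.74% were lower past both thresholds and 39.4% by the adjusted p alone. *Fzd6*, one of the 7, was in the table through the TdTomato- libraries alone and had to be lower. The abundant *Fzd2* (chr11:102604396-102608058, plus strand, GRCm38) was at 91.2, 136, 119, 120 and 120 CPM in TdTomato- libraries and at 10.8, 23.1, 21.9, 16.2 and 17.5 CPM in TdTomato+ libraries (log2 fold change −2.74 ± 0.09 SE, adjusted p = 1.1e-08). *Fzd1* (chr5:4753839-4758035, minus strand, GRCm38) followed it closely, at 72.1, 116, 104, 101 and 98.7 CPM in TdTomato- and 14.8, 26.5, 26.6, 21.2 and 22.6 CPM in TdTomato+ libraries (log2 fold change −2.15 ± 0.06 SE, adjusted p = 4.2e-09). In both genes mouse 2 had the lowest level of its population. *Fzd8*, a receptor known from cortical progenitors, was at 35.6, 68.7, 52.7, 49.8 and 47.1 CPM in TdTomato- and 3.58, 7.89, 6.53, 5.91 and 4.70 CPM in TdTomato+ libraries (log2 fold change −3.16 ± 0.07 SE, adjusted p = 1.8e-09), and mouse 2 was again the lowest and mouse 3 the highest in each population. *Fzd9* was at 19.9, 18.4, 14.5, 23.4 and 22.1 CPM in TdTomato- and 2.81, 1.39, 1.41, 2.65 and 3.12 CPM in TdTomato+ libraries (log2 fold change −3.13 ± 0.14 SE, adjusted p = 5.7e-08). For each of these 4 genes the highest TdTomato+ library was below the lowest TdTomato- library, beside 61.6% of all genes with no overlap.

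The other 3 receptors past both thresholds were close to the limit of detection in TdTomato+ cells. *Fzd5* was at 7.23, 4.80, 4.29, 6.54 and 5.64 CPM in TdTomato- and 0.181, 0.304, 0.618, 0.435 and 0.226 CPM in TdTomato+ libraries (log2 fold change −3.98 ± 0.29 SE, adjusted p = 1.6e-06), and 17.8% of its exonic bases overlap a gene on the other strand. *Fzd6* was at 1.21, 2.32, 1.80, 1.03 and 1.64 CPM in TdTomato- and 0.136, 0.173, 0.177, 0.0435 and 0.0904 CPM in TdTomato+ libraries (log2 fold change −3.64 ± 0.27 SE, adjusted p = 2.0e-06), the latter from 1 to 4 reads per library. *Fzd10* was at 2.38, 1.45, 5.41, 3.33 and 1.50 CPM in TdTomato- and 0.0907, 0.0434, 0.574, 0.0870 and 0.0904 CPM in TdTomato+ libraries (log2 fold change −4.04 ± 0.31 SE, adjusted p = 2.3e-06), and 4 of its TdTomato+ libraries had at most 3 reads. The TdTomato- libraries stood above all TdTomato+ libraries for each of the 3 genes, beside 61.6% of all genes with no overlap. *Fzd6* was under 0.5 CPM in every TdTomato+ library, so its separation was fixed by the filter of the table. *Fzd5* and *Fzd10* were under that level in at least 4 TdTomato+ libraries, which left little room for overlap. For *Fzd10* mouse 4 had the highest level in both populations.

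*Fzd3* (chr14:65192449-65262463, minus strand, GRCm38), which is known for its role in the guidance of forebrain axon tracts, differed little between the populations. It was at 131, 139, 131, 126 and 113 CPM in TdTomato- and 108, 135, 125, 122 and 108 CPM in TdTomato+ libraries, and these ranges overlapped. The log2 fold change was −0.10 ± 0.05 (SE), lower in 5 of 5 mice, and did not pass the adjusted p (0.082). It was called lower with upper-quartile scaling (log2 fold change −0.12, adjusted p = 0.045) and with scaling by library totals (−0.28, adjusted p = 7.9e-04). *Fzd4* was low in both populations, at 3.32 ± 0.750 CPM (SD, n = 5) in TdTomato- and 3.49 ± 0.700 CPM in TdTomato+ libraries. Its log2 fold change was 0.08 ± 0.18 (SE), with mice in both directions. *Fzd7* was at 16.4, 17.0, 14.2, 18.9 and 18.7 CPM in TdTomato- and 9.93, 6.33, 5.83, 14.3 and 11.0 CPM in TdTomato+ libraries (log2 fold change −0.90 ± 0.14 SE, adjusted p = 3.5e-04). Its groups overlapped by the TdTomato+ library of mouse 5, and mice 3 and 4 were the lowest of the TdTomato+ libraries.

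Summed per kilobase, the 10 receptors were at 88.8 ± 10.2 CPM (SD, n = 5) in TdTomato- and 24.3 ± 2.93 CPM in TdTomato+ libraries, 3.66-fold lower. The share of *Fzd3* in that sum was 14.0%, 10.7%, 11.5%, 10.7% and 9.95% in the TdTomato- libraries and 43.3%, 39.0%, 37.8%, 38.0% and 35.5% in the TdTomato+ libraries. The mean difference was 27.4 points, in the same direction in 5 of 5 mice (exact paired sign-flip permutation test, two-sided, p = 0.0625, again the smallest possible). *Fzd2* made up 36.0% of the sum in TdTomato- and 19.9% in TdTomato+ cells, *Fzd1* 26.2% and 21.7%, and *Fzd7* 4.28% and 8.83%. In these means *Fzd2* was thus the leading receptor transcript of TdTomato- cells and *Fzd3* that of TdTomato+ cells.

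The coreceptors and alternative receptors differed by less. *Lrp6* was at 127, 133, 117, 124 and 118 CPM in TdTomato- and 76.0, 87.9, 92.4, 85.2 and 82.0 CPM in TdTomato+ libraries (log2 fold change −0.55 ± 0.06 SE, adjusted p = 2.0e-05). *Lrp5* was at 48.8, 51.0, 40.3, 58.1 and 56.7 CPM in TdTomato- and 24.3, 17.5, 19.0, 22.4 and 28.8 CPM in TdTomato+ libraries (log2 fold change −1.20 ± 0.09 SE, adjusted p = 1.8e-06). Neither reached the fold threshold, and both were separated in every library. *Ryk*, an atypical tyrosine kinase receptor for Wnt5a, was at 77.3, 88.7, 90.4, 83.9 and 89.1 CPM in TdTomato- and 55.6, 61.1, 59.6, 57.1 and 58.8 CPM in TdTomato+ libraries (log2 fold change −0.55 ± 0.04 SE, adjusted p = 2.3e-06). *Ptk7*, a pseudokinase of planar cell polarity, was at 90.7, 101, 97.0, 101 and 101 CPM in TdTomato- and 56.8, 61.3, 63.7, 55.1 and 59.5 CPM in TdTomato+ libraries (log2 fold change −0.73 ± 0.05 SE, adjusted p = 1.1e-06). *Ror2*, the receptor tyrosine kinase for Wnt5a, was at 13.0, 19.1, 15.2, 15.3 and 15.5 CPM in TdTomato- and 7.75, 10.7, 10.9, 6.22 and 7.37 CPM in TdTomato+ libraries (log2 fold change −0.88 ± 0.12 SE, adjusted p = 1.1e-04). All 3 alternative receptors were lower by the adjusted p (39.4% of all genes) with no overlap of the groups (61.6% of all genes), and their log2 fold changes, −0.55 to −0.88, were above the members' median of −1.20.

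Of the 8 extracellular inhibitors, 3 were lower past both thresholds, 3 more were lower by the adjusted p alone, *Apcdd1* was higher by the adjusted p alone and *Dkk2* was not called (of all genes, 9.74% were lower past both thresholds, and 39.4% lower and 37.9% higher by the adjusted p). *Sfrp1* (chr8:23411502-23449632, plus strand, GRCm38), a secreted frizzled-related protein that binds Wnts, was the most abundant of them per kilobase in both populations. It was at 205, 284, 252, 246 and 245 CPM in TdTomato- and 70.4, 75.2, 69.5, 72.7 and 81.9 CPM in TdTomato+ libraries (log2 fold change −1.73 ± 0.06 SE, adjusted p = 1.9e-08), with no overlap. *Sfrp2* was at 22.8, 26.4, 25.5, 28.1 and 26.8 CPM in TdTomato- and 6.39, 4.34, 1.99, 9.43 and 6.73 CPM in TdTomato+ libraries (log2 fold change −2.24 ± 0.24 SE, adjusted p = 2.6e-05). The 5 TdTomato- libraries of *Sfrp2* lay close together, whereas its TdTomato+ libraries ranged from 1.99 CPM in mouse 4 to 9.43 CPM in mouse 5. Without mouse 4 its log2 fold change was −1.98. Summed per kilobase, *Sfrp1*, *Sfrp2* and *Frzb* were 3.49-fold lower in TdTomato+ libraries (19.7 ± 1.96 CPM) than in TdTomato- libraries (68.8 ± 7.08 CPM).

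*Dkk3*, a divergent member of the dickkopf family, was at 16.8, 10.4, 9.18, 19.0 and 19.3 CPM in TdTomato- and 5.26, 0.911, 0.574, 4.13 and 5.97 CPM in TdTomato+ libraries (log2 fold change −2.33 ± 0.29 SE, adjusted p = 6.4e-05). Mice 3 and 4 were the lowest in both populations, and their TdTomato+ libraries were under 1 CPM while those of the other 3 mice were at 4.13 CPM or more. *Wif1*, a secreted inhibitor that binds Wnts, was at 1.17, 0.657, 2.05, 1.35 and 0.558 CPM in TdTomato- and 0.227, 0.130, 0.221, 0.435 and 0.181 CPM in TdTomato+ libraries (log2 fold change −2.23 ± 0.30 SE, adjusted p = 1.1e-04), with 3 to 10 reads per TdTomato+ library. Its log2 fold change was −1.93 without mouse 4 and −1.92 with a prior count of 2. *Wif1* was under 0.5 CPM in every TdTomato+ library. It was thus in the table through the TdTomato- libraries alone and had to be lower, although counted among the 3 inhibitors above. *Frzb* (−1.43 ± 0.26, adjusted p = 7.3e-04) and *Kremen1*, a dickkopf receptor (−1.35 ± 0.09, adjusted p = 1.3e-06), were lower on the log2 scale without reaching 2. *Dkk2* was under 1 CPM in all 10 libraries, with a log2 fold change of −0.68 ± 0.40 (adjusted p = 0.15). With single mice left out it ranged from −1.14 to −0.39, and without mouse 3 it was called lower (−1.14, adjusted p = 0.027). *Apcdd1*, a membrane-bound inhibitor of Wnt signalling, went against the others. It was at 51.6, 82.4, 73.0, 71.0 and 63.6 CPM in TdTomato- and 128, 182, 182, 160 and 180 CPM in TdTomato+ libraries, 2.44-fold higher with no overlap (log2 fold change 1.29 ± 0.06 SE, adjusted p = 6.9e-08).

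R-spondins are secreted proteins that strengthen Wnt signalling by binding Lgr receptors and removing the ubiquitin ligases Rnf43 and Znrf3. These ligases otherwise clear frizzled receptors from the membrane. *Rspo3* (chr10:29452416-29535867, minus strand, GRCm38) was higher in TdTomato+ cells. It was at 16.7, 16.1, 17.8, 15.3 and 22.2 CPM in TdTomato- and 65.6, 87.0, 76.5, 72.1 and 78.9 CPM in TdTomato+ libraries, a fold of 4.33 with no overlap of the groups (log2 fold change 2.11 ± 0.09 SE, adjusted p = 3.7e-08). Under TREAT it was not past the fold threshold (adjusted p = 0.30). With scaling by library totals its log2 fold change was 1.94, and 13.1% of its exonic bases overlap a gene on the other strand. *Rspo1* was at 2.15, 2.45, 1.92, 1.23 and 1.88 CPM in TdTomato- and 0.272, 0.304, 0.0883, 0.0435 and 0.0452 CPM in TdTomato+ libraries, from 1 to 7 reads per TdTomato+ library (log2 fold change −3.67 ± 0.33 SE, adjusted p = 7.5e-06). *Rspo2* was at 2.58, 2.49, 2.17, 1.66 and 3.24 CPM in TdTomato- and 2.22, 0.477, 0.662, 2.96 and 1.76 CPM in TdTomato+ libraries, which overlapped (log2 fold change −0.71 ± 0.39 SE, adjusted p = 0.12). Without mouse 5 it was called lower (−1.15, adjusted p = 0.016). Its TdTomato+ libraries of mice 3 and 4 were under 1 CPM and those of the other 3 mice at 1.76 CPM or more. The 3 R-spondin genes thus had log2 fold changes of 2.11, −3.67 and −0.71, which passed both thresholds upward, passed both downward and did not pass. *Rspo1* was in the table through the TdTomato- libraries alone and had to be lower.

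Both ligases of the R-spondin axis and the receptor *Lgr4* were lower in TdTomato+ cells. *Rnf43* was at 2.46, 0.691, 0.762, 1.66 and 1.71 CPM in TdTomato- and 0.408, 0.0867, 0.132, 0.174 and 0.0904 CPM in TdTomato+ libraries (log2 fold change −3.01 ± 0.29 SE, adjusted p = 1.1e-05), and in TdTomato- cells mice 3 and 4 were the lowest. *Znrf3* was at 20.3, 14.4, 13.6, 17.5 and 16.5 CPM in TdTomato- and 6.76, 6.33, 5.47, 5.78 and 5.65 CPM in TdTomato+ libraries (log2 fold change −1.45 ± 0.09 SE, adjusted p = 6.3e-07). *Lgr4* was at 12, 10.9, 11.1, 9.79 and 9.03 CPM in TdTomato- and 3.49, 1.47, 2.52, 3.83 and 2.76 CPM in TdTomato+ libraries (log2 fold change −1.94 ± 0.19 SE, adjusted p = 1.5e-05), just short of the fold threshold, which it passed without mouse 5 (−2.10) and with scaling by library totals (−2.11). For all 3 genes every TdTomato+ library was below every TdTomato- library, beside 61.6% of all genes with no overlap. *Rnf43* was under 0.5 CPM in every TdTomato+ library, so its separation was fixed by the filter of the table. The related receptor *Lgr6*, which is not among the members, was not called (log2 fold change −0.39 ± 0.29 SE, adjusted p = 0.24), and its groups overlapped.

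**Figure D4:**
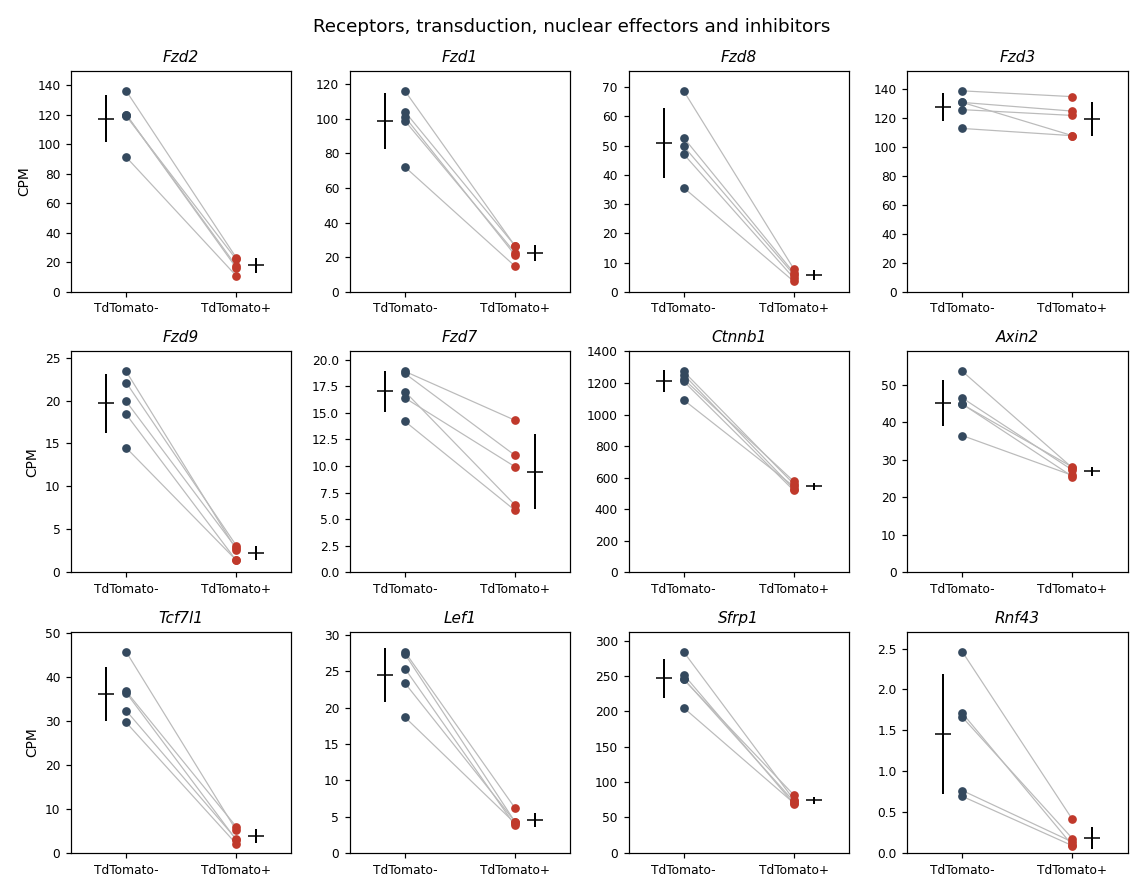
CPM (linear axes from 0) of 6 frizzled receptors, *Ctnnb1*, *Axin2*, *Tcf7l1*, *Lef1*, *Sfrp1* and *Rnf43*. Points are libraries, lines join the libraries of a mouse, and crosses give the mean ± SD of 5 mice. *Fzd3* stays at 108 to 139 CPM in all 10 libraries and the groups of *Fzd7* overlap. The other genes shown are lower in TdTomato+ libraries with no overlap, which for *Rnf43* was fixed by the filter of the table.

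The log2 fold changes of the 9 cytoplasmic components ran from −1.15 to 0.94, and none reached the fold threshold in edgeR. By the adjusted p alone 6 (66.7%) were lower and 2 (22.2%) higher, beside 39.4% and 37.9% of all genes. *Ctnnb1* (chr9:120929216-120960507, plus strand, GRCm38), which encodes β-catenin, was the most abundant of them per kilobase (233 CPM per kb in TdTomato-, 105 CPM per kb in TdTomato+). It was at 1093, 1254, 1211, 1274 and 1226 CPM in TdTomato- and 545, 530, 519, 560 and 577 CPM in TdTomato+ libraries, 2.22-fold lower with no overlap (log2 fold change −1.15 ± 0.05 SE, adjusted p = 3.3e-08). *Apc*, the scaffold of the destruction complex, was at 640, 584, 552, 556 and 502 CPM in TdTomato- and 1115, 1121, 1058, 1106 and 1028 CPM in TdTomato+ libraries (log2 fold change 0.94 ± 0.04 SE, adjusted p = 7.5e-08). In each TdTomato+ library *Apc* was above, and *Ctnnb1* below, every TdTomato- library. *Gsk3b*, the kinase of the complex, was at 499, 531, 533, 481 and 460 CPM in TdTomato- and 527, 558, 530, 572 and 499 CPM in TdTomato+ libraries, and its groups overlapped (log2 fold change 0.10 ± 0.04 SE, adjusted p = 0.055). It was called higher by the adjusted p without mouse 4 (0.030) and with RLE size factors (0.044). *Axin1* (−0.40 ± 0.05) and *Axin2* (−0.74 ± 0.07), the limiting scaffolds, were lower on the log2 scale (adjusted p = 6.1e-05 and 7.3e-06).

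The dishevelled genes, whose products pass the signal from frizzleds, differed among themselves in direction. *Dvl2* had a log2 fold change of −0.94 ± 0.05 (adjusted p = 1.6e-07) and *Dvl3* of −0.27 ± 0.04 (adjusted p = 1.1e-04), both lower with no overlap. *Dvl1* was at 91.8 ± 11.4 CPM (SD, n = 5) in TdTomato- and 103 ± 14.6 CPM in TdTomato+ libraries, with overlapping groups. Its log2 fold change of 0.16 ± 0.04 (adjusted p = 0.0086) was −0.02 when libraries were scaled by their totals alone, and was not called without the mouse as a block (adjusted p = 0.18). Their sum per kilobase was 59.6 ± 2.61 CPM in TdTomato- and 51.3 ± 3.45 CPM in TdTomato+ libraries (exact paired sign-flip permutation test, two-sided, n = 5, p = 0.0625). *Nkd1*, a feedback antagonist that binds dishevelled, was at 36.4, 47.5, 51.6, 43.8 and 39.4 CPM in TdTomato- and 18.6, 47.2, 47.5, 23.9 and 26.3 CPM in TdTomato+ libraries (log2 fold change −0.49 ± 0.14 SE, adjusted p = 0.0095). In mice 3 and 4 the populations differed little, and in the other 3 mice the TdTomato+ library was well below its partner. Without the mouse as a block the difference was not called (−0.42, adjusted p = 0.13).

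The nuclear effectors were lower as a group. *Tcf7l2* (chr19:55741820-55933654, plus strand, GRCm38), *Tcf7l1* (chr6:72626378-72789254, minus strand, GRCm38), *Lef1* (chr3:131110471-131224356, plus strand, GRCm38) and *Tcf7* encode the TCF/LEF factors that carry β-catenin to DNA. *Tcf7l2* was at 116, 45.3, 195, 134 and 39.9 CPM in TdTomato- and 7.12, 1.69, 27.0, 11.2 and 1.76 CPM in TdTomato+ libraries (log2 fold change −3.73 ± 0.23 SE, adjusted p = 5.3e-07). It ranged widely among mice, from 39.9 to 195 CPM in TdTomato- and from 1.69 to 27.0 CPM in TdTomato+ libraries, yet the groups did not overlap. *Tcf7l1*, mostly known as a repressor, was at 29.7, 45.8, 36.8, 36.5 and 32.4 CPM in TdTomato- and 2.04, 5.12, 5.96, 2.96 and 3.12 CPM in TdTomato+ libraries (log2 fold change −3.27 ± 0.15 SE, adjusted p = 9.3e-08). *Lef1* was at 18.7, 25.4, 27.4, 27.7 and 23.4 CPM in TdTomato- and 4.08, 3.77, 4.28, 6.17 and 4.29 CPM in TdTomato+ libraries (log2 fold change −2.44 ± 0.11 SE, adjusted p = 5.6e-08). *Tcf7* was low in both populations, at 2.99 ± 0.537 CPM (SD, n = 5) in TdTomato- and 1.29 ± 0.218 CPM in TdTomato+ libraries (log2 fold change −1.20 ± 0.16 SE, adjusted p = 9.2e-05). All 4 genes were lower by the adjusted p (39.4% of all genes), 3 of them past both thresholds (9.74%), in 5 of 5 mice with no overlap (61.6%).

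Per kilobase the 4 factors summed to 25.2 ± 7.28 CPM (SD, n = 5) in TdTomato- and 3.10 ± 1.38 CPM in TdTomato+ libraries, 8.15-fold lower, beside 3.66-fold for the frizzled and 1.16-fold for the dishevelled genes. The lowest TdTomato- sum was 16.9 CPM in mouse 6 and the highest TdTomato+ sum 5.44 CPM in mouse 4. Within the sum, the share of *Tcf7l2* ranged from 24.8% to 62.4% over the TdTomato- libraries and from 7.90% to 56.6% over the TdTomato+ libraries, and these ranges overlapped.

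Some members differed between mice, and 4 of them are given beside the listed thalamic markers, a choice made after their values were seen. In the TdTomato- libraries *Tcf7l2*, *Fzd10*, *Wnt3* and *Wif1* were highest in mouse 4 and lowest in mice 3 and 6. Of the 5 listed thalamic markers, *Gbx2* (11.0, 8.22, 30.3, 16.5 and 6.45 CPM in TdTomato- libraries of mice 2 to 6), *Lhx9* (43.5, 37.1, 61.1, 45.4 and 28.1 CPM), *Olig3* (1.88, 3.46, 8.74, 3.37 and 1.29 CPM) and *Foxp2* (75.0, 60.5, 77.8, 70.2 and 51.0 CPM) were also highest in mouse 4 and lowest in mouse 6. The fifth, *Lhx2*, ran the other way, at 406, 426, 367, 479 and 481 CPM, lowest in mouse 4 and highest in mouse 6. In TdTomato+ libraries *Tcf7l2*, *Fzd10* and *Gbx2* (1.04, 2.73, 4.50, 1.83 and 0.678 CPM) were highest in mouse 4, and the other genes were not. There *Lhx9* and *Wif1* were highest in mouse 5, *Olig3* in mouse 3 and *Wnt3* in mouse 6, and *Foxp2* and *Lhx2* were lowest in mouse 4. The summed level of all 5 listed genes, which *Lhx2* dominates, was 535 to 615 CPM in TdTomato- and 83.2 to 174 CPM in TdTomato+ libraries. Its lowest TdTomato+ value was in mouse 4. The paper uses *Foxp2* as a marker of cortical layer VI, so that gene does not mark the thalamus alone. The sum is thus not a measure of thalamic tissue. The part of tissue from outside the cortex in the levels of these members was not tested.

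**Figure D5:**
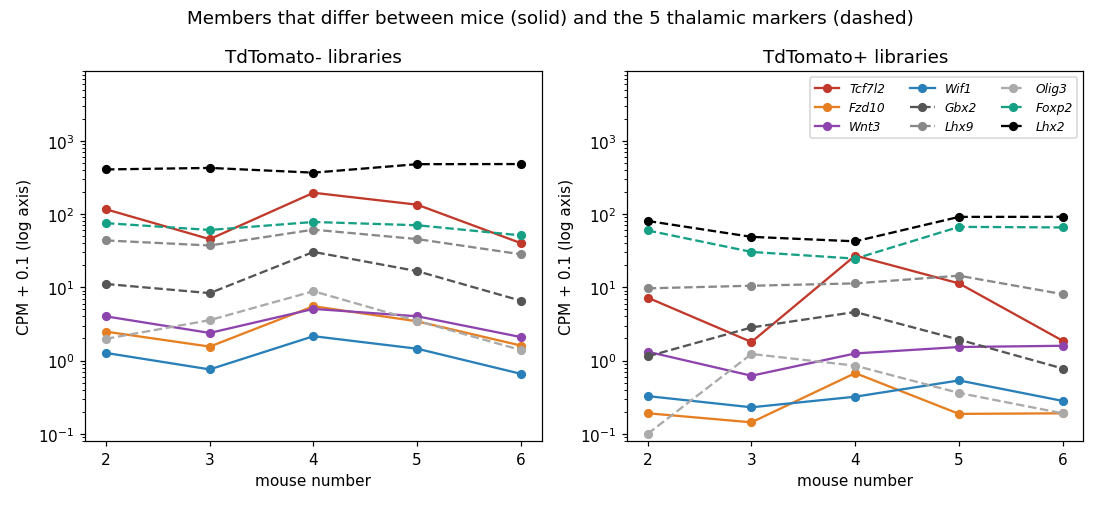
CPM plus 0.1 on a log axis for 4 members (solid) and 5 genes listed as thalamic markers (dashed) in each library. TdTomato- is left and TdTomato+ right. Mice have no order, and lines only join the values of a gene. In TdTomato- libraries all genes but *Lhx2*, which is lowest there, peak in mouse 4. In TdTomato+ libraries *Tcf7l2*, *Fzd10* and *Gbx2* peak in mouse 4 and the other 6 do not.

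Other members set mice 3 and 4 apart from mice 2, 5 and 6 in TdTomato+ cells. Among the members whose lowest TdTomato+ libraries were those of mice 3 and 4 were *Dkk3*, *Sfrp2*, *Wnt5a*, *Fzd7*, *Fzd9*, *Lrp5* and *Rspo2*, and among those whose highest were there were *Nkd1*, *Tcf7l1*, *Ror2* and *Dkk2*. Outside the pathway *Lhx2* (80.3, 48.7, 42.3, 91.3 and 91.5 CPM) and *Foxp2* (59.6, 30.3, 24.5, 66.7 and 65.5 CPM) were lowest in the same TdTomato+ libraries. The summed microglial markers of the TdTomato- libraries were 11.4 and 15.6 CPM in mice 3 and 4 and 40.0 to 53.9 CPM in the others. When any 1 mouse was omitted, *Dkk3* had log2 fold changes of −2.55 to −2.11, *Nkd1* of −0.62 to −0.38 and *Rspo2* of −1.15 to −0.41. The part of these differences between mice in the results was not tested.

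A wider set of 89 genes of Wnt signalling outside the 51 members stood near all genes in its counts. Of the 84 in the table, 2 were higher and 7 lower past both thresholds (3.20% and 9.74% of all genes). By the adjusted p alone 38 (45.2%) were higher and 31 (36.9%) lower, beside 37.9% and 39.4% of all genes, and the median log2 fold change was 0.06. The higher genes were *Prickle1* (log2 fold change 3.86 ± 0.18), a core component of planar cell polarity, and *Camk2b* (2.67 ± 0.07), a calcium-dependent kinase abundant in neurons. The lower genes were *Daam2* (−4.55 ± 0.13), a formin that acts with dishevelled, *Celsr1* (−4.37 ± 0.13), a cadherin of planar cell polarity, and the glypican *Gpc3* (−3.18 ± 0.20). So were the transcription factors *Nfatc1* (−4.00 ± 0.44) and *Nfatc4* (−2.35 ± 0.08) and the Wnt inhibitors *Tpbg* (−3.48 ± 0.19) and *Shisa2* (−2.16 ± 0.08). *Nfatc1* was under 0.5 CPM in every TdTomato+ library, so it was in the table through the TdTomato- libraries alone and had to be lower. In its family, *Celsr1* was at 430 ± 65.7 CPM (SD, n = 5) in TdTomato- and 21.2 ± 6.49 CPM in TdTomato+ libraries. By contrast *Celsr2* (0.16 ± 0.04) and *Celsr3* (0.56 ± 0.04) were higher on the log2 scale by the adjusted p alone (0.0058 and 1.1e-06).

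Genes that Wnt signalling is known to induce were mostly lower in TdTomato+ cells. Of 22 listed targets, 19 were in the table, 11 were lower and 0 higher past both thresholds (9.74% and 3.20% of all genes), and 15 were lower and 3 higher by the adjusted p alone in edgeR (39.4% and 37.9% of all genes). Of the 11, *Sp5*, *Cd44* and, with CPM from library totals, *Neurog1* were under 0.5 CPM in every TdTomato+ library. These 3 were in the table through the TdTomato- libraries, and the counts and median describe its genes only. Their median log2 fold change was −3.78. The highest log2 fold change of the list was 1.67, and DESeq2 likewise gave 0 higher and 11 lower genes past both thresholds. The 11 held the cell cycle genes *Ccnd1* (−4.76 ± 0.12), *Ccnd2* (−4.38 ± 0.11) and *Birc5* (−5.35 ± 0.09), and *Sp5* (−3.85 ± 0.42) and *Cd44* (−3.07 ± 0.48). They also held the cortical progenitor and patterning factors *Emx2* (−3.88 ± 0.15), *Dmrta2* (−4.15 ± 0.06), *Sp8* (−5.50 ± 0.18), *Prdm16* (−3.78 ± 0.11), *Neurog1* (−5.09 ± 0.15) and *Neurog2* (−4.00 ± 0.07). Most of these genes are also known as genes of dividing or progenitor cells. The marker sums of such cells given above were lower in TdTomato+ libraries too, and the part of cell type was not tested. *Neurog2* is itself among the intermediate progenitor markers. *Nrcam* (1.67 ± 0.04), a neuronal adhesion molecule, *Id2* (1.57 ± 0.05), an inhibitor of basic helix-loop-helix factors, and *Myc* (0.24 ± 0.07) were the 3 higher genes. Among the 7 members that are themselves feedback targets of the pathway, *Axin2*, *Lef1*, *Tcf7*, *Nkd1*, *Znrf3* and *Rnf43* were lower and *Apcdd1* was higher by the adjusted p (39.4% and 37.9% of all genes). *Lef1* and *Rnf43* were also past the fold threshold, and *Rnf43* had to be lower by the filter of the table. *Axin2*, the most widely used readout among them, was at 46.4, 44.8, 36.4, 53.5 and 44.7 CPM in TdTomato- and 27.2, 25.5, 25.8, 27.8 and 28.0 CPM in TdTomato+ libraries, lower in 5 of 5 mice with no overlap.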

How the data were processed

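Polyadenylated RNA of sorted TdTomato+ and TdTomato- cells of 5 mice was analysed as 10 libraries. The authors aligned reads with STAR (2.4.2a in their processing notes) to GRCm38, kept uniquely mapped reads, and deposited raw counts per gene, without normalization. The annotation release and the strand column counted are not given in the sources used here, so levels of genes that overlap another are uncertain. The labels name whole brain, a BIOO kit and HiSeq reads, whereas the paper's methods name the dorsal telencephalon, a Nugen kit and NextSeq reads.

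Total counts were 23429034 to 27286180 per library, so counting error was similar in all. Symbols, coordinates and exonic lengths were from GENCODE M21 on GRCm38, which matched 14271 of the 14300 identifiers, and promoters from RefSeq on GRCm38.p6. The populations were compared by the quasi-likelihood F-test of edgeR 4.0.16 (R 4.3.3) after filterByExpr and TMM, with the mouse as a block and a prior count of 0.125, and p-values were adjusted by Benjamini-Hochberg over all 14300 genes. The thresholds were an adjusted p of 0.05 and a log2 fold change of 2 in size. The comparison was paired because each mouse number carries both populations. Deviations of libraries from their group means correlated at 0.303, 0.268, 0.281, 0.186 and 0.316 within mice 2 to 6, and at −0.312 to 0.212 between mice. No 2 libraries of a population agreed within sampling noise (chi-square per degree of freedom 4.46 to 32). The labels number the mice but do not say whether a number is a single embryo, and p-values measure the spread between these samples. Family shares were computed from CPM per kilobase and compared by exact paired sign-flip permutation tests. The procedure was tested on simulated data.

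Alternatives were RLE and upper-quartile scaling, DESeq2 1.42.0, all genes kept, genes kept above 1 CPM in 5 libraries or more, a fit without the mouse, robust estimation, a prior count of 2, TREAT against 2 and each mouse left out. Scaling by library totals was added after the data had been seen. The members and lists were chosen with earlier results of these data known. By rule every member is named, values in every library are given for members past both thresholds and for the 3 of each role with the highest mean CPM per kilobase, and listed genes outside the members are named where they passed both thresholds. *Wnt3*, *Fzd7*, *Nkd1*, *Dkk2*, *Rspo2* and *Axin2*, and other genes named outside this rule, were singled out after their values were seen.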

Additional observations from a re-analysis of the deposited data

Results flagged for a closer look

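In each group of 5 libraries, a library was singled out when its gap to the nearest other library on the log2 scale (0.1 added to CPM) exceeded 0.71 of the range of its group, Dixon's limit. Of 102 groups (51 members in 2 populations) 5 were singled out, where chance gives about 1 in 20 groups, or 5.10 here. *Fzd10* in TdTomato+ cells was highest in mouse 4 (0.574 CPM, others 0.0434 to 0.0907 CPM, gap over range 0.816). *Kremen1* in TdTomato- cells was lowest in mouse 4 (21.7 CPM, others 25.1 to 26.3 CPM, 0.748). *Wnt3* in TdTomato+ cells was lowest in mouse 3 (0.520 CPM, others 1.15 to 1.49 CPM, 0.742). *Lef1* in TdTomato+ cells was highest in mouse 5 (6.17 CPM, others 3.77 to 4.29 CPM, 0.739). *Wnt2b* in TdTomato- cells was lowest in mouse 2 (0.782 CPM, others 1.24 to 1.46 CPM, 0.735). All 5 genes were lower in TdTomato+ cells in 5 of 5 mice.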

How the results depend on the processing

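The deposited table was already filtered, and the setting with no filter on low counts left every value as it was, so it could not move a result. Over the 14 other settings the log2 fold changes of the members gave 709 comparisons, of which 691 kept their direction and stayed past, or not past, the pair of thresholds. With the adjusted p alone, 9 of 658 comparisons (TREAT left out) changed side, for *Fzd3*, *Dkk2*, *Rspo2*, *Gsk3b*, *Nkd1* and *Dvl1*. The direction turned in 4, for *Fzd4* (−0.07 without mouse 5, with a range of −0.07 to 0.23 over single mice left out, and −0.10 with total-count scaling) and, with total-count scaling, for *Gsk3b* (−0.08) and *Dvl1* (−0.02), which were near 0 throughout. The number of members higher past both thresholds was 0 with TREAT, 0 with total-count scaling and 1 to 2 with each mouse left out, and *Wnt7b* was the gene lost without mouse 2. The number lower was 14 with TREAT, which tests each change against the fold threshold itself and lost *Wnt2b*, *Dkk3*, *Sfrp2* and *Wif1*, and 15 to 19 in the other settings. In the fit with no replicate block the counts were 2 higher and 18 lower past both thresholds and 5 higher and 39 lower by the adjusted p alone, and for the other pathway genes 3 higher and 7 lower, so leaving out the paired design changed no count by over 1.5 times, although *Nkd1* and *Dvl1* were then not called. In an unpaired exact permutation test the differences in the shares of *Wnt7b* (34.9 points) and *Fzd3* (27.4 points) had p = 0.0079, whereas 5 pairs cannot go below 0.0625. TREAT gives no count for the adjusted p alone.

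Genes under 0.5 CPM in most libraries were not analysed here, and in TdTomato+ cells *Wnt8b*, *Wnt2b*, *Fzd6*, *Fzd10*, *Rspo1* and *Rnf43* had 3 reads or fewer in at least 2 libraries, so their fitted fold changes depend on the prior count and give no bound.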
